A study of Mus musculus with 4 samples.

Results

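Cyclins, CDK1 and the polo and Aurora kinases drive a cell into division. The results below describe 10 of their genes: *Ccna1*, *Ccna2*, *Ccnb1*, *Ccnb2*, *Ccnb3*, *Cdk1*, *Cdc25c*, *Plk1*, *Aurkb* and *Aurkc*. They were chosen by name, for the role of their proteins, out of 24411 genes listed for each library, and each of them was found under its symbol. RNA was measured by sequencing in cells sorted from testes at postnatal day 18 (P18), when the first wave of spermatocytes is in meiotic prophase. The control group comprised 2 libraries from *Zfp541*+/- testes, and the KO group comprised 2 libraries from *Zfp541* KO testes, in which most of the gene had been deleted by genome editing in fertilized eggs. *Zfp541* encodes a germ cell zinc-finger protein, and the comparison asks how its loss alters the transcripts of meiotic prophase cells. All 4 libraries came from mice that carried the Rec8-3FH-GFP knock-in allele, which couples GFP to the meiotic cohesin *Rec8*, and GFP-positive cells were collected. The sample labels give a mixed C57BL/6 and CBA strain, whereas the methods of the study name C57BL/6. According to the design description of the series, 1 of the control testes was heterozygous and the other homozygous for the knock-in allele, while both KO testes were homozygous, and the labels do not say which control library is which. More than 1 KO line was made, and the labels do not name the line. Each control also lacks 1 copy of *Zfp541*, so no library stands for the wild type.

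CDK1 is the kinase that brings a cell into M phase, and it is active only with a cyclin partner. Cyclin A2 acts in S phase and at entry into division, cyclins B1 and B2 act at entry into M phase, cyclin A1 is a germ cell cyclin that male mice need for the first meiotic division, and cyclin B3 acts in meiosis. CDC25 phosphatases remove the inhibitory phosphates that WEE1 and PKMYT1 place on CDK1. PLK1 is a kinase of mitotic and meiotic entry, and Aurora B and its germ cell relative Aurora C are the kinases of the chromosomal passenger complex, which corrects the attachment of chromosomes to the spindle. In spermatocytes many of these transcripts are present well before the division itself.

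Many genes of cell division carry, close to their start, the CCAAT box bound by NF-Y and the cell cycle homology region (CHR, TTTGAA) read by the MuvB complexes. The promoters of 4 members are shown because they cover the range of these letters within the family. RefSeq windows of 300 bases (250 before and 50 after the start, GRCm38.p6) were held for 7 of the 10 members, and *Ccna2*, *Cdc25c* and *Aurkb* had none. The stretches below run 5′ to 3′ on the strand of the gene and end before both the RefSeq and the GENCODE start. Capitals mark the CCAAT box, the CHR or the core letters read by MYB proteins, which are AACTG. On the opposite strand the CCAAT box reads ATTGG and the MYB core reads CAGTT.
Ccnb2, chr9:70421555-70421704, minus strand: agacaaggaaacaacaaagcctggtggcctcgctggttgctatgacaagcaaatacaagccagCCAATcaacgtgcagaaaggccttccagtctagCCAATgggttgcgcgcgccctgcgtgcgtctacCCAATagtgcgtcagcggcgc
Cdk1, chr10:69352939-69353088, minus strand: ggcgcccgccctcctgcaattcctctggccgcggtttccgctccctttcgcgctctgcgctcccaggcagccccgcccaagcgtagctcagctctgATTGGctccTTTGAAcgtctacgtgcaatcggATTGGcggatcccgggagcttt
Ccnb1, chr13:100786571-100786720, minus strand: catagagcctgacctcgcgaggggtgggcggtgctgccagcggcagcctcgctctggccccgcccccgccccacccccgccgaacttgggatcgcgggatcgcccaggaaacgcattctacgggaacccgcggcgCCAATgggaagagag
Ccnb3, chrX:7041620-7041769, minus strand: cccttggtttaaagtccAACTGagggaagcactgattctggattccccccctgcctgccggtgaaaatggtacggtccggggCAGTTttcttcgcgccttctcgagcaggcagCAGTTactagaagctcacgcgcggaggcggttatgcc
Both strands of each whole window were searched for these letters and for a variant of the CHR, TTCGAA. The *Ccnb2* window held 3 CCAAT boxes, which began 87, 54 and 21 bases before the start and thus 33 bases apart, and 2 CHR. *Cdk1* also held 3 CCAAT boxes, of which the pair nearest to the start began 80 and 48 bases before it (32 bases apart), with 2 CHR, 1 of which overlapped 1 of its 3 MYB cores. *Ccnb1* held 2 CCAAT boxes, 99 and 67 bases before the start, with no CHR and 1 MYB core. Both CCAAT boxes of *Ccnb1* were on the strand of the gene, whereas those of *Cdk1* were on the opposite strand. The matches nearest to the start of *Cdk1* and *Ccnb1* lie beyond the GENCODE start and are not in the stretches printed. *Plk1* held 1 CCAAT box and 1 CHR, the latter after the start. *Ccna1* and *Aurkc* each held 1 CCAAT box and neither a CHR nor a MYB core, and the *Aurkc* match lay after the start. *Ccnb3* held 3 MYB cores but no CCAAT box. The CHR variant was found in none of the 7 windows. Over 32851 windows, the CCAAT box was present in 37.4%, 2 or more of them in 11.7%, the CHR in 17.9%, its variant in 1.56%, the MYB core in 44.8%, and a CHR together with a CCAAT box in 6.95%. GC content ran from 46.0% in *Aurkc* to 74.0% in *Ccna1*, where the median of all windows was 52.7%. For *Ccna1*, the GENCODE gene begins upstream of the whole RefSeq window, so its window may not lie before the start used in these cells. A match describes letters, and binding was not measured here.

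Values are TPM, transcript abundances scaled to gene length and to a fixed total per library, so they can be compared between genes but keep no record of sequencing depth. Replicates are separate testes, and with 2 against 2 an exact permutation test cannot give a p below 0.333. Genes were therefore compared with limma on log2(TPM + 1), a scale that understates the difference of low genes, over the 14512 genes whose mean reached 1 TPM. Fold changes are KO minus control, and p-values were adjusted over all 14512 genes. The libraries bear on every result. *Zfp541* itself measured 112 (control 1), 72.2 (control 2), 136 (KO 1) and 151 TPM (KO 2) (log2 fold change 0.67, SE 0.28, adjusted p = 0.371 with limma). Both KO libraries were thus above both controls, although most of the gene was deleted in the KO. A TPM for the whole gene does not separate the deleted exons. The values by themselves thus do not show the deletion, and the reason for them was not tested. By immunoblot, the study found no ZFP541 protein in extracts of other KO testes. In the same order, *Kctd19*, whose protein is a partner of ZFP541, was at 379, 243, 258 and 318 TPM, and *Rec8* was at 7.05, 27.9, 27.7 and 19.4 TPM, so control 1 had the lowest level of the transcript on which the sort was built. The median gene was 0.28 higher in KO, and 69% of genes were higher.

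The controls stood apart from each other. The 6 Leydig cell markers summed to 2910 TPM in control 1, 18.0 in control 2, 331 in KO 1 and 504 in KO 2, led by *Insl3*, and *Lhcgr*, named after its values were seen, was listed at 0 in control 2. The 5 macrophage markers, led by *Lyz2*, summed to 2045, 21.6, 1687 and 1251 TPM. Sertoli cell markers, led by *Clu*, were at 813, 721, 1087 and 769 TPM, peritubular myoid markers, led by *Tagln*, at 10.7, 17.6, 23.5 and 17.2 TPM, and red blood cell markers, led by *Hba-a1*, at 64.1, 18.7, 27.7 and 27.2 TPM. In bulk samples, fewer cells of a type and less RNA per cell cannot be told apart. The part of these cell types in the results below was not tested.

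No member passed the test. An FDR of 0.05 was reached by 0 of the 10 members and by 0% of all genes in either direction (0% higher and 0% lower). This result is that of limma on log2(TPM + 1). With RSEM at an FDR of 0.05, the study itself reported many genes higher and many lower in the KO. Why the 2 results differ was not tested. The smallest adjusted p over all genes was 0.31, while 2091 genes had an unadjusted p under 0.05 and none of them was a member. The members' adjusted p ran from 0.387 for *Ccna1* to 0.993 for *Cdk1*. Their median log2 fold change was -0.013, with 4 members higher and 6 lower. Both KO libraries lay below both controls for 3 members (*Ccna1*, *Ccnb2* and *Aurkc*), against 12.1% of all genes tested. Both lay above both controls for 0 of 10, against 38.6% of all genes. At least a 2-fold difference was seen for 1 member in the lower direction, *Ccna1* (5.22% of all genes), and for 0 in the higher direction (8.98% of all genes). Scaling shifted the members as well as the background. Median-ratio scaling brought the median of all genes to -0.007 and that of the members to -0.33. With it, 4 members lay below both controls (*Aurkb* was added), against 22.4% of all genes, and 0 above, against 23.0%.

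**Figure D1:**
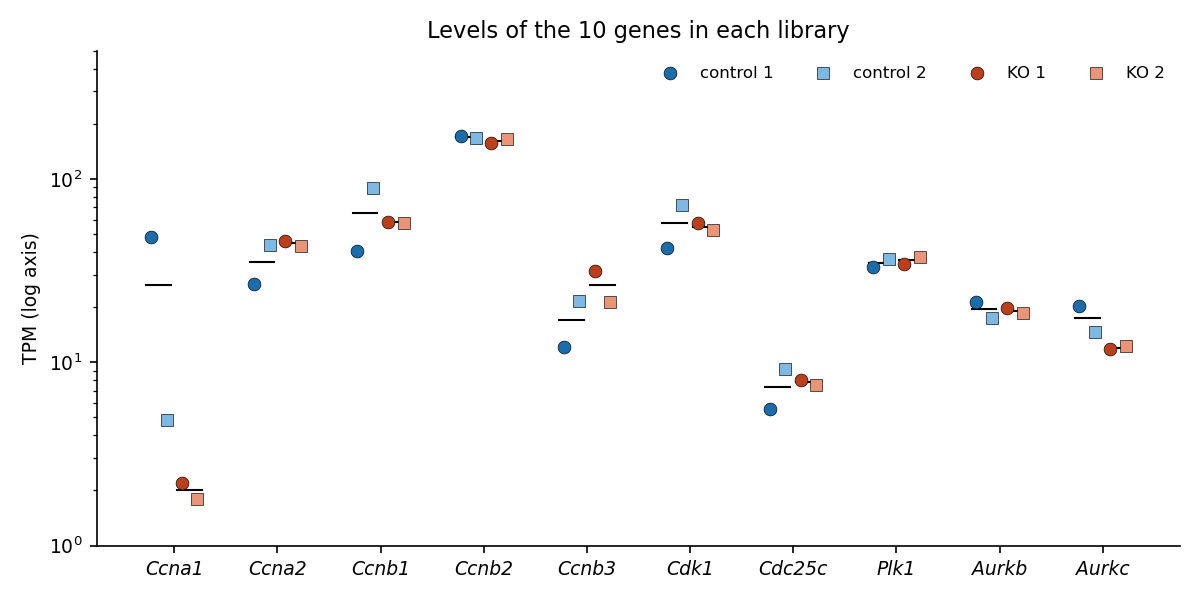
TPM (log axis) of the 10 genes in each of the 4 libraries, with black bars at the group means. *Ccna1* spans 48.2 to 1.80 TPM across the libraries, whereas *Ccnb2* stays between 157 and 170 TPM.

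*Ccnb2* was the most abundant member, with a mean of 165 TPM over the 4 libraries, which was above 91.3% of the genes tested. *Ccnb1* (61.5 TPM), *Cdk1* (56.0), *Ccna2* (39.8), *Plk1* (35.4), *Ccnb3* (21.7), *Aurkb* (19.3), *Aurkc* (14.8), *Ccna1* (14.3) and *Cdc25c* (7.55) followed in mean TPM. Of the neighbours in this order, only *Ccnb2* and *Ccnb1*, and *Plk1* and *Ccnb3*, had ranges over the 4 libraries that did not overlap. *Cdk1* was above *Ccna2* and *Aurkb* above *Aurkc* within each of the 4 libraries, although their ranges overlapped. The place of *Ccna1* was set by 1 library: it was above *Cdc25c* in control 1 and below it in the other 3.

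*Ccna1* (ENSMUSG00000027793.6, chr3:55045469-55055501, minus strand, mm10) encodes cyclin A1, the cyclin of late meiotic prophase. It was at 48.2 TPM in control 1, 4.83 in control 2, 2.20 in KO 1 and 1.80 in KO 2. Both KO libraries were below both controls, and the controls were 9.99-fold apart, a wider gap than that between control 2 and either KO library. The means were 26.5 ± 30.7 TPM in the control and 2.00 ± 0.283 in the KO (SD, n = 2 each), 13.3-fold lower in the KO. The log2 fold change was -2.50 (SE 1.11, 95% interval -5.50 to 0.50, adjusted p = 0.387 with limma). Against control 1 the KO libraries were at -3.94 and -4.14 on the log2(TPM + 1) scale, and against control 2 at -0.87 and -1.06. Without control 1, *Ccna1* passed the FDR at -0.96 (limma, adjusted p = 0.0447), and without control 2 it passed at -4.04 (limma, adjusted p = 0.0188). In those fits, which have 1 control and take the spread from the KO pair alone, 50.8% of all genes passed without control 1 (40.5% higher and 10.3% lower) and 30.0% without control 2 (16.4% higher and 13.5% lower), so a pass there says little about a single gene. *Ccna1* shares 260 bases with *4931419H13Rik* on the opposite strand, whose values were 9.10, 3.43, 2.68 and 2.79 TPM, and reads of such a pair cannot be told apart with this kit.

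*Ccna2* (ENSMUSG00000027715.9, chr3:36564865-36572150, minus strand) encodes the somatic A-type cyclin. Its level was 26.7 TPM in control 1, 43.7 in control 2, 46.0 in KO 1 and 43.0 in KO 2, so control 1 was alone in being low. The log2 fold change was 0.37 (SE 0.31, 95% interval -0.47 to 1.22, adjusted p = 0.601 with limma). Without control 2 it was 0.72 and passed the FDR (limma, adjusted p = 0.0316) in the fit where 30.0% of all genes passed, and without control 1 it was 0.025. The gene overlaps 863 bases of *Exosc9* on the opposite strand, whose values were 68.3, 58.5, 109 and 108 TPM, and 10.8% of the 75-base windows of *Ccna2* transcripts, the length of a read, are shared with that gene.

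The 2 A-type cyclins thus stood in different proportion in control 1 from the other libraries. *Ccna1* was 1.81 times *Ccna2* in control 1, 0.111 times in control 2, 0.0479 times in KO 1 and 0.0419 times in KO 2. Control 1 was the only library in which the germ cell form was the more abundant.

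*Ccnb1* (ENSMUSG00000041431.16, chr13:100778650-100786570, minus strand) encodes cyclin B1, the main partner of CDK1 at entry into M phase. Control 1 held 40.4 TPM, control 2 89.6, KO 1 58.5 and KO 2 57.7. The controls were 2.22-fold apart and both KO libraries lay between them. KO minus control was -0.051 on the log2 scale (SE 0.43, 95% interval -1.21 to 1.10, adjusted p = 0.966 with limma). The direction followed the control used: without control 1 it was -0.62 (limma, adjusted p = 0.013) and without control 2 it was 0.51 (limma, adjusted p = 0.0416), fits in which 50.8% and 30.0% of all genes passed. Of its 75-base windows, 18.9% also occur in pseudogene copies such as *Ccnb1-ps*, so its level is uncertain to that extent.

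*Ccnb2* (ENSMUSG00000032218.7, chr9:70407692-70421547, minus strand) encodes cyclin B2 and varied least. The 4 values, in the same order, were 170.5, 166.8, 156.9 and 165.8 TPM. The groups did not overlap, but the gap between them was about 1 TPM out of a mean of 165. The difference on the log2 scale was -0.064 (SE 0.17, 95% interval -0.53 to 0.40, adjusted p = 0.88 with limma). *Ccnb2* was 4.22 times *Ccnb1* in control 1, 1.86 times in control 2, 2.68 times in KO 1 and 2.87 times in KO 2, a ratio that followed *Ccnb1*.

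*Ccnb3* (ENSMUSG00000051592.14, chrX:6979652-7041619, minus strand) encodes cyclin B3 and is the X-linked member. Control 1 held 12.1 TPM, control 2 21.7, KO 1 31.6 and KO 2 21.4. KO 1 was the highest and control 1 the lowest, while KO 2 and control 2 nearly coincided. Its log2 fold change of 0.64 was the highest of the members (SE 0.41, 95% interval -0.47 to 1.76, adjusted p = 0.51 with limma). The median of the 548 X-linked genes tested was 0.28, the same as that of all genes, and 83.9% of them had a lower fold change than *Ccnb3*. Of the 4 cyclins with a promoter window, it is the one with no CCAAT box.

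**Figure D2:**
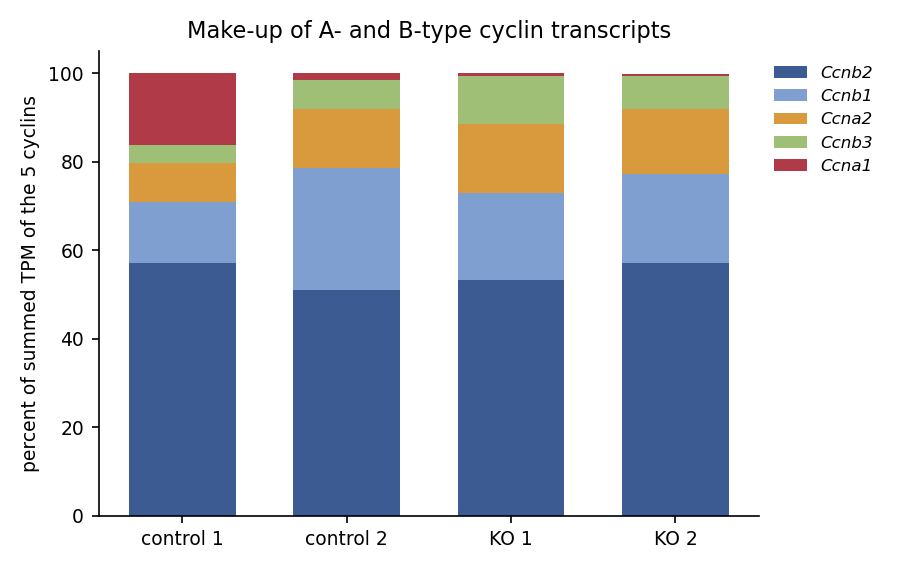
Each cyclin's percent of the summed TPM of the 5 cyclins, in the 4 libraries. *Ccna1* takes 16.2% in control 1 and 1.48% or less in the other libraries, and *Ccnb2* takes over 50% in each.

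The 5 cyclins together summed to 298 TPM in control 1, 327 in control 2, 295 in KO 1 and 290 in KO 2. *Ccnb2* made up 57.2%, 51.1%, 53.2% and 57.2% of this sum in control 1, control 2, KO 1 and KO 2. *Ccna1* made up 16.2%, 1.48%, 0.746% and 0.621%. *Ccnb1* was at 13.6% and 27.4% in the controls and 19.8% and 19.9% in the KO, and *Ccna2* was at 8.95% in control 1 and between 13.4% and 15.6% in the others. *Ccnb3* was at 4.08% and 6.64% in the controls and at 10.7% and 7.38% in the KO. Its share and that of *Ccna2* were higher in both KO libraries than in either control. In TPM, however, both genes overlapped between the groups, and a share also depends on the other cyclins in the sum. How often a share separates the groups in this way was not computed. The total was similar in the 4 libraries. The share of *Ccna1* set control 1 apart from the other 3, whereas for *Ccnb1* the controls lay on either side of the KO libraries.

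*Cdk1* (ENSMUSG00000019942.13, chr10:69335146-69352938, minus strand) measured 42.0 TPM in control 1, 72.4 in control 2, 57.2 in KO 1 and 52.6 in KO 2. Both KO libraries lay between the controls, and the group means were 57.2 ± 21.5 and 54.9 ± 3.23 TPM (SD, n = 2 each). The fitted log2 fold change was -0.0073 (SE 0.32, 95% interval -0.88 to 0.87, adjusted p = 0.993 with limma). *Ccnb1* stayed close to *Cdk1*, at 0.961, 1.24, 1.02 and 1.10 times its level in control 1, control 2, KO 1 and KO 2. *Ccna2* was at 0.635 and 0.603 times *Cdk1* in the controls and at 0.803 and 0.817 times in the KO. This ratio lay higher in both KO libraries than in both controls, and within each group it differed little. The ratios to *Cdk1* were not among those planned. How often the ratio of a pair of genes separates the groups in this way was not computed.

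*Cdc25c* (ENSMUSG00000044201.10, on chromosome 18) encodes a phosphatase that activates CDK1 and had the lowest mean of the members. The values were 5.54 TPM in control 1, 9.15 in control 2, 7.97 in KO 1 and 7.56 in KO 2, again with the KO between the controls. KO minus control was 0.11 on the log2 scale (SE 0.41, 95% interval -0.99 to 1.20, adjusted p = 0.919 with limma). The profile of *Cdc25c* was the closest of any member's to that of *Cdk1*: after each was centred on its mean over the 4 libraries, they differed by a root mean square of 0.0763 on the log2 scale.

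*Plk1* (ENSMUSG00000030867.7, chr7:122159439-122169873, plus strand) measured 33.1, 36.6, 34.3 and 37.7 TPM in control 1, control 2, KO 1 and KO 2. The groups overlapped, and the 4 libraries spanned less than 5 TPM. Its log2 fold change was 0.045 (SE 0.22, 95% interval -0.55 to 0.64, adjusted p = 0.937 with limma).

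*Aurkb* (ENSMUSG00000020897.12, chr11:69045647-69051664, plus strand) measured 21.3, 17.5, 19.7 and 18.5 TPM in the same order. Both KO libraries were between the controls, with a log2 fold change of -0.019 (SE 0.28, 95% interval -0.77 to 0.73, adjusted p = 0.981 with limma). *Aurkc* (ENSMUSG00000070837.5, chr7:6995300-7003091, plus strand) measured 20.4 TPM in control 1, 14.6 in control 2, 11.8 in KO 1 and 12.3 in KO 2. Both KO libraries were below both controls, and the control mean was 1.45-fold the KO mean. For *Aurkc* the log2 fold change was -0.49 (SE 0.33, 95% interval -1.37 to 0.40, adjusted p = 0.529 with limma). *Aurkc* was at 0.954 and 0.832 times *Aurkb* in the controls and at 0.599 and 0.663 times in the KO. The germ cell kinase was thus lower relative to *Aurkb* in both KO libraries. The share of gene pairs whose ratio separates the groups in this way was not computed. Of the 75-base windows of *Aurkc*, 43.3% also occur in pseudogenes such as *Gm12463*, the highest share of the 10, and those pseudogenes have no row of their own in the tables. *Ccnb2*, *Ccnb3*, *Cdk1* and *Aurkb* share no such window with another gene.

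**Figure D3:**
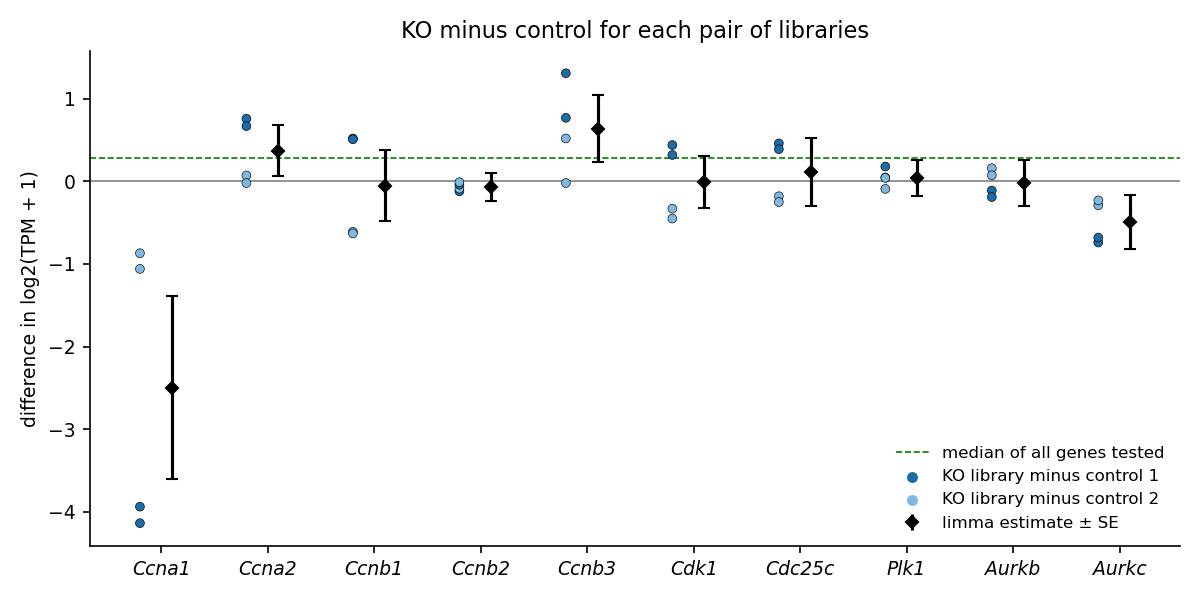
KO minus control on the log2(TPM + 1) scale for each member: points are the 4 pairs of a KO with a control library, coloured by control, bars are the limma estimate ± SE, and the dashed line is the median of all genes tested, 0.28. For *Ccna1*, the pairs with control 1 lie at -3.94 and -4.14 and those with control 2 at -0.87 and -1.06.

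The libraries differed within the control group for most genes, members included. In 8 of the 10, the gap between the controls exceeded the gap between the group means on the log2 scale, which held for 61.6% of all genes tested. In 9 of the 10, the controls differed more than the KO libraries did, against 85.1% of all genes. For 4 members (*Ccnb1*, *Cdk1*, *Cdc25c* and *Aurkb*) both KO libraries lay between the controls, against 30.9% of all genes. Control 2 was above control 1 for 6 members and below it for 4. The 6 were *Ccna2*, *Ccnb1*, *Ccnb3*, *Cdk1*, *Cdc25c* and *Plk1*, and the 4 were *Ccna1*, *Ccnb2*, *Aurkb* and *Aurkc*.

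The cells' stage was followed with marker lists. The 11 pachytene markers, led by *Ldhc*, summed to 9219 and 4696 TPM in the controls and to 3202 and 4435 TPM in the KO. Control 2 was below control 1 for 10 of the 11, and both KO libraries were below both controls for 5, against 12.1% of all genes. The 10 leptotene and zygotene markers, led by *Hormad1*, summed to 903 and 1255 TPM in the controls and to 1946 and 1972 in the KO. Both KO libraries were above both controls for 8 of them, against 38.6% of all genes. The 12 spermatogonial markers, led by *Uchl1*, summed to 486, 1082, 819 and 651 TPM, with 2 above both controls. No gene of these lists passed the FDR. With median-ratio scaling, 8 pachytene markers lay below both controls, against 22.4% of all genes. Of the leptotene and zygotene markers, 5 then lay above and 1 below, and 1 spermatogonial marker lay above, against 23.0% of all genes above. Round spermatid transcripts were scarce: of 9 markers 4 passed the filter, *Prm1*, *Prm2*, *Tnp1*, *Acrv1* and *Catsper1*, named because they did not pass, were between 0 and 1.48 TPM in each library, and the list, led by *Spaca1*, summed to 26.9, 22.0, 39.5 and 39.5 TPM. *Ccna1*, *Ccnb2*, *Aurkb* and *Aurkc* were, like the summed pachytene markers, highest in control 1, whereas *Ccna2*, *Ccnb1*, *Ccnb3*, *Cdk1*, *Cdc25c* and *Plk1* were lowest there. The part of stage composition in these values was not tested.

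**Figure D4:**
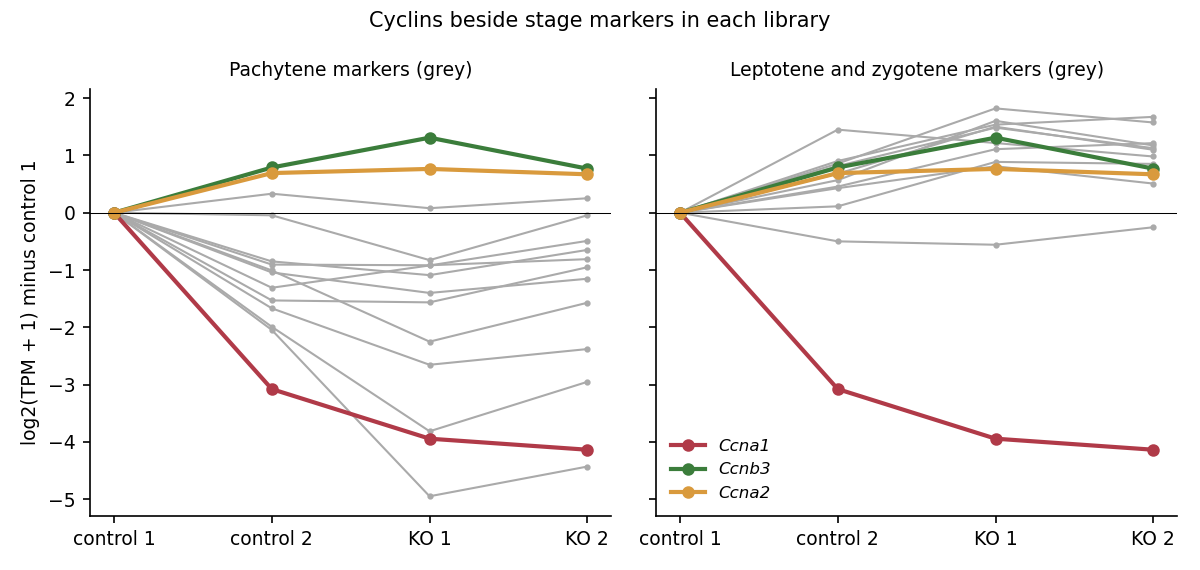
Level in each library minus that in control 1, on the log2(TPM + 1) scale, lines joining the values of 1 gene. *Ccna1*, *Ccnb3* and *Ccna2* are drawn in both panels, beside the pachytene markers (left) and the leptotene and zygotene markers (right) in grey. Control 2 lies at -3.08 for *Ccna1* and at 0.69 for *Ccna2*.

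Each member was compared with 125 genes of the pathway and marker lists by the root mean square difference of centred log2 profiles over the 4 libraries, a description of likeness that takes in all differences between libraries. Nearest to *Ccna1* were *Crisp2* at 0.539 (1016, 255, 71.3 and 131 TPM), *Gsg2* at 0.63 and *Acr* at 0.666 (118, 36.5, 18.0 and 21.9 TPM). *Crisp2* and *Acr* encode proteins of sperm and are in the pachytene list. These distances were larger than those of any other member. *Aurkc* was nearest to *Tbpl1* (0.165), *Spo11* (0.188) and *Ybx2* (0.197), genes of spermatocytes. The nearest genes of the remaining members lay between 0.0264 and 0.136. *Ccna2* was nearest to *Ppp2ca* (0.0462), *Arpp19* (0.0715) and *Gadd45a* (0.0827), *Ccnb1* to *Rhox5* (0.0845), *Ccnf* (0.11) and *Dmrt1* (0.128), and *Cdk1* to *Ccnf* (0.0805), *Rhox5* (0.096) and *Sall4* (0.0971). *Cdc25c* was nearest to *Ensa* (0.0325), *Mybl2* (0.0501) and *Sall4* (0.0729). *Ccnb3* was nearest to *Nanos3* (0.0264), *Sox9* (0.0964) and *Cldn11* (0.0964). *Ccnb2* was nearest to *Cdk2* (0.0969), *Plk3* (0.123) and *Mtl5* (0.136), *Plk1* to *Mtl5* (0.0729), *Cdca8* (0.0956) and *Cks2* (0.106), and *Aurkb* to *Plk3* (0.0663), *Cdk2* (0.0765) and *Ppp2r2a* (0.131). Among the members themselves, *Cdk1* and *Cdc25c* (0.0763), *Ccnb2* and *Plk1* (0.0837), *Ccnb2* and *Aurkb* (0.104), and *Ccnb1* and *Cdk1* (0.134) were closest.

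The regulators of CDK1 were examined next. Of 16 genes that help to activate CDK1, 0 passed the FDR, both KO libraries were above both controls for 9 (38.6% of all genes), and the median log2 fold change was 0.34, near the 0.28 of all genes. With median-ratio scaling, 5 lay above both controls (23.0% of all genes) and the median was 0.026. The highest was *Mybl1*, the MYB factor of pachytene spermatocytes, at 70.3 and 38.3 (control) against 81.5 and 98.1 TPM (KO) (log2 fold change 0.77, SE 0.36, adjusted p = 0.396 with limma). The lowest was *Cks2*, a small subunit of CDK complexes, at 642 and 854 against 747 and 754 TPM (log2 fold change 0.018, SE 0.26, adjusted p = 0.98 with limma). Neither value of *Mybl1* in the KO overlapped the controls, whereas the KO values of *Cks2* lay between them.

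Of 15 genes listed for the restraint of CDK1, 14 passed the filter on low values (*Wee2*, the oocyte kinase, did not). Of these, 0 passed the FDR, and the median was 0.47. Both KO libraries were above both controls for 8 and below for 0 (38.6% and 12.1% of all genes). With median-ratio scaling, 5 lay above and 1 below (23.0% and 22.4% of all genes), and the median was 0.16. The highest was *Cdkn1c*, which encodes the CDK inhibitor p57, at 5.66 and 9.46 against 19.8 and 15.7 TPM (log2 fold change 1.16, SE 0.40, adjusted p = 0.33 with limma). The lowest was *Fbxo43*, an inhibitor of the anaphase-promoting complex, at 53.8 and 11.9 against 16.9 and 25.1 TPM (log2 fold change -0.30, SE 0.78, adjusted p = 0.877 with limma). Inhibitors of that complex do not restrain CDK1 themselves, so the counts and median of this list cover mixed functions. *Wee1* and *Chek1* were chosen after their values were seen. *Wee1*, the kinase that inhibits CDK1, was at 33.3 and 26.4 against 68.5 and 59.4 TPM (log2 fold change 1.08, SE 0.24, adjusted p = 0.31 with limma). *Chek1*, a checkpoint kinase, was at 9.20 and 13.2 against 26.9 and 23.8 TPM (log2 fold change 1.13, SE 0.32, adjusted p = 0.318 with limma). *Wee1* and *Chek1* were higher in both KO libraries than in both controls, as were 38.6% of all genes, and neither passed the FDR.

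Of 14 partners of the Aurora and polo kinases, 0 passed the FDR, both KO libraries were above both controls for 7 and below for 4 (38.6% and 12.1% of all genes), and the median was 0.21. The median changed sign with the scaling, to -0.049 with median-ratio scaling, and was 0.0069 with quantile normalization. With median-ratio scaling, 5 lay above and 5 below (23.0% and 22.4% of all genes). The highest was *Sgol1*, a shugoshin that protects cohesin at centromeres, at 8.03 and 10.8 against 18.0 and 17.6 TPM (log2 fold change 0.87, SE 0.33, adjusted p = 0.348 with limma). The lowest was *Gsg2*, the gene of haspin, whose histone mark recruits the passenger complex to centromeres. *Gsg2* was at 177 and 48.1 against 26.4 and 31.7 TPM (log2 fold change -1.64, SE 0.67, adjusted p = 0.366 with limma). As with *Ccna1*, control 1 was far above control 2 and both KO libraries were below both controls. *Gsg2* lies within *Itgae* on the opposite strand, and *Itgae* was at 14.5, 6.46, 3.62 and 4.56 TPM. That overlap is of gene spans, and whether the spliced transcripts share bases was not examined. The other 3 that lay below both controls are named because their values were seen: *Meikin*, *Aurka* and *Birc5*. *Meikin*, which acts with PLK1 at meiotic kinetochores, was at 48.7 and 49.0 against 28.7 and 29.7 TPM (log2 fold change -0.72, SE 0.21, adjusted p = 0.315 with limma). Unlike *Ccna1* and *Gsg2*, *Meikin* was nearly level between the controls. *Aurka*, the spindle pole kinase, was at 123 and 136 against 96.2 and 105 TPM, with a log2 fold change of -0.36 (adjusted p = 0.423 with limma). *Birc5*, which encodes the passenger subunit survivin, was at 116 and 139 against 94.2 and 97.5 TPM, with a log2 fold change of -0.40 (adjusted p = 0.41 with limma). The 7 partners above both controls included *Bub1*, *Tpx2* and *Incenp*, likewise named after their values were seen, with log2 fold changes of 0.77, 0.56 and 0.49.

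**Figure D5:**
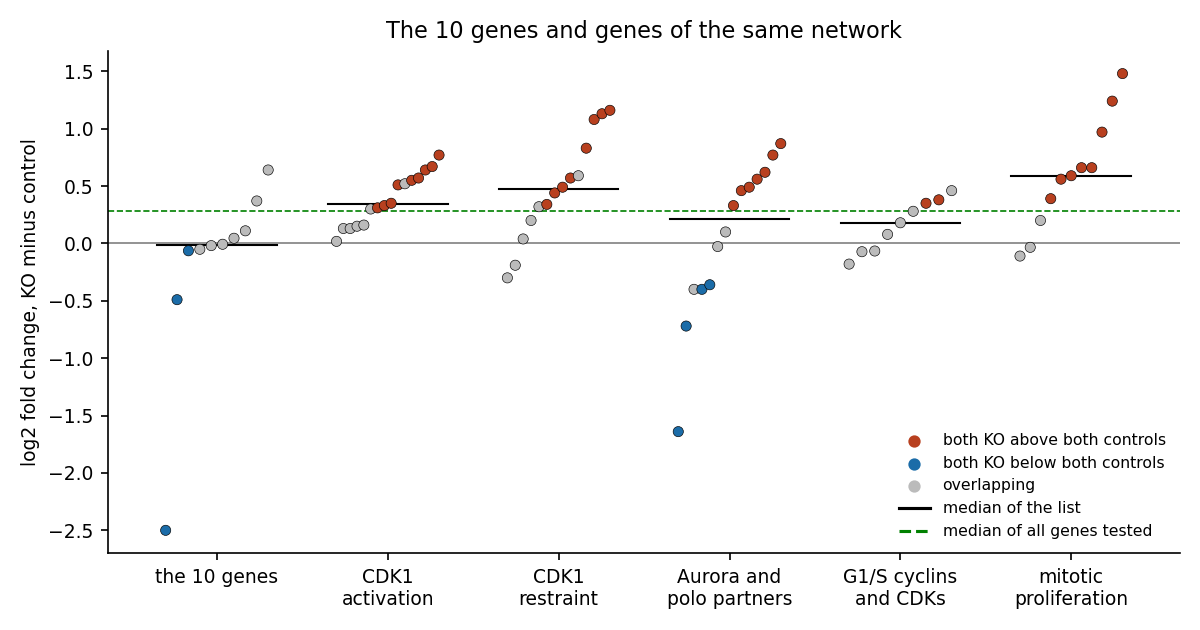
Log2 fold changes (KO minus control) of the members and of 5 pathway lists, each point a gene, coloured by whether both KO libraries lie above or below both controls, with black bars at the medians. The members' median is -0.013 and that of the mitotic proliferation list 0.59.

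For comparison, the 9 cyclins and kinases of the G1/S transition had 0 genes past the FDR, 2 above both controls and a median of 0.18, a median that quantile normalization put at -0.0013 and median-ratio scaling at -0.12. They ran from *Cdk4* (154 and 203 against 159 and 152 TPM, log2 fold change -0.18, adjusted p = 0.71 with limma) to *Ccne1* (13.3 and 29.4 against 29.1 and 26.1 TPM, log2 fold change 0.46, adjusted p = 0.649 with limma). The 11 genes of mitotic proliferation had 0 past the FDR, 8 above both controls and a median of 0.59. With median-ratio scaling, 6 lay above both controls (23.0% of all genes) and the median was 0.27. The highest of them was *Cenpe*, a kinetochore motor, at 30.1 and 16.0 against 59.1 and 67.6 TPM (log2 fold change 1.48, SE 0.37, adjusted p = 0.31 with limma). The lowest was *Ube2c*, a ubiquitin-conjugating enzyme of mitotic exit, at 29.5 and 68.6 against 48.1 and 36.3 TPM (log2 fold change -0.11, adjusted p = 0.931 with limma). The proliferation list and the members hold genes of the same division, and 8 of 11 of the former and 0 of 10 of the latter lay above both controls, where 38.6% of all genes did. The difference between the lists was not tested.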

How the data were processed

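RNA from GFP-positive cells of 4 testes (2 *Zfp541*+/- and 2 *Zfp541* KO) was sequenced from mRNA libraries made with a kit that does not mark strand. Per the submitters' processing notes and the methods of the study, the authors trimmed single-end reads with Trim Galore 0.5.0 (cutadapt 1.16), aligned them to mm10 with STAR 2.6.0a and estimated expression with RSEM 1.3.1. The deposited values are TPM for each gene and library. TPM has the same sum in every library, so sequencing depth and the precision it gives are unknown. A date stands where the symbol should be in 27 rows, which were left unnamed.

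The groups were fitted by limma 3.58.1 (R 4.3.3) on log2(TPM + 1), with a mean-variance trend, for genes whose mean over the 4 libraries reached 1 TPM, with Benjamini-Hochberg adjustment over all genes tested at an FDR of 0.05. The script was run on simulated data in which the mean level of every gene was set high, above that of most members. That run does not show what size of change could be found at the members' levels. The members and lists were chosen with earlier results of these data known. Genes named were the 10 members, the highest and lowest gene of each pathway list and any past the FDR, the 3 nearest profiles of each member, the most abundant marker of each list, and *Zfp541*, *Kctd19* and *Rec8*. Other genes were named after their values were seen, for not passing the filter, or for overlapping or sharing windows with a named gene. Shared windows of 75 bases and coordinates came from GENCODE M21, and promoters from RefSeq (GRCm38.p6). Alternatives covered pseudocount, filter, scaling, trend, the replicate block, the FDR and leaving out each library, and a crossed block was added after the data were seen.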

Additional observations from a re-analysis of the deposited data

How the results depend on the processing

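TPM hides depth, and each group had 2 testes, so a control that stands apart decides many values. Changing the pseudocount, the filter or the trend turned no member's direction and brought no member past the FDR. Scaling moved the zero point: the median of all genes was -0.007 with median-ratio scaling, the members' median was -0.33 with it and -0.21 with quantile normalization, *Cdc25c* was at -0.19 and -0.093, and *Plk1* at -0.27 and -0.21. Leaving out each library in turn gave 0 to 5759 genes higher and 0 to 1981 lower past the FDR, in fits that assume a lone sample to vary like the other group. Members past the FDR then numbered 0 to 2 higher and 0 to 2 lower, or 2 of 10 in all without control 1, where 50.8% of all genes passed, and 3 of 10 without control 2, where 30.0% did. Members above the remaining controls in the KO numbered 1 to 6 and below 3 to 6, where 66.1% of all genes lay above and 24.9% below without control 1, and 52.6% and 36.3% without control 2, and their median ran from -0.13 to 0.25 (all genes 0.15 to 0.45). The passes were *Ccna1* and *Ccnb1* without control 1, and *Ccna1*, *Ccna2* and *Ccnb1* without control 2. The log2 fold change ran from -0.62 to 0.51 for *Ccnb1*, -0.39 to 0.38 for *Cdk1*, -0.21 to 0.42 for *Cdc25c*, -0.025 to 0.12 for *Plk1* and -0.15 to 0.12 for *Aurkb*, each changing sign. *Cdk1* was at 0.38 without control 2 and 0.052 without KO 2, *Aurkb* at 0.12 without control 1 and 0.022 without KO 2, *Plk1* at -0.025 without control 1 and -0.022 without KO 2, and *Cdc25c* at -0.21 without control 1. *Ccna1*, *Ccna2*, *Ccnb2*, *Ccnb3* and *Aurkc* kept their direction in all 13 alternatives, *Ccna1* between -4.04 and -0.96. Libraries with the same number did not deviate together (correlation -0.16). With 2 libraries per group, a single correlation cannot decide whether any libraries were paired. The replicate block left 0 genes higher and 0 lower past the FDR. The crossed block, added after the data were seen, gave 7 higher and 80 lower, of which 0 were members.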
